A study of Homo sapiens with 3 samples.

Results

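KRT8, KRT18, KRT19, KRT7, KRT5, EPCAM, CDH1, CDH2, VIM and ZEB1 encode keratins, adhesion proteins, vimentin and a transcriptional repressor that are commonly read as markers of the epithelial or the mesenchymal state. They were chosen by name, and all 10 were found among the 58735 genes of the expression table. RNA-seq was analysed for H660 (NCI-H660), a human neuroendocrine prostate cancer cell line, treated with JG231, an allosteric inhibitor of the HSP70 chaperones. The groups were parental H660 cells given the vehicle DMSO, 2.5 µM JG231 or 5 µM JG231, each for 24 h. Each group had 1 library, so no standard deviation or test was possible, and each difference compares libraries. The steps between low values correspond to 16.1 M fragments in DMSO, 20.4 M at 2.5 µM and 24.1 M at 5 µM. Levels are in FPKM, fragments scaled to gene length and to all mapped fragments. Which length was used for a gene with several transcripts is not settled here, so ratios between genes are approximate, and fragment numbers below take all annotated exons as its length.

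The sample records call the cells prostatic adenocarcinoma, so lineage markers were looked at before the 10 genes. SCG3, a granin of secretory granules, had 64.5 FPKM in DMSO, 35.4 FPKM at 2.5 µM and 33.4 FPKM at 5 µM. CHGA, chromogranin A, had 46 FPKM in DMSO, 15.05 FPKM at 2.5 µM and 12.7 FPKM at 5 µM, and SYP, synaptophysin, 17.7, 13 and 14.8 FPKM. Of the luminal prostate genes, KLK2 was listed at 0 in all libraries and KLK3 did not exceed 0.134 FPKM. ACP3, prostatic acid phosphatase, had 1.5 FPKM in DMSO, 0.726 FPKM at 2.5 µM and 1.97 FPKM at 5 µM. H660 thus showed these neuroendocrine markers, with these luminal markers low or at 0. Of 8 neuroendocrine genes, 7 were lower and 1 higher at 2.5 µM by more than 0.25 on the log2 scale, and 8 were lower at 5 µM. Of all genes over 1 FPKM in either library, 43.4% and 45.1% were lower. In bulk RNA, fewer cells of a type and less RNA per cell cannot be told apart.

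Markers of other cell types that express vimentin or N-cadherin were looked at next. The 10 fibroblast genes summed to 0.945 FPKM in DMSO, 1.05 FPKM at 2.5 µM and 1.54 FPKM at 5 µM, with COL1A1 the most abundant, and DCN, PDGFRB, POSTN and FAP were listed at 0 throughout. Of the leukocyte genes, CD14 had 1.09 FPKM in DMSO, 0.234 FPKM at 2.5 µM and 0.948 FPKM at 5 µM, and PTPRC, CD3E and LYZ were at 0. The 6 endothelial genes summed to 5.15, 0.741 and 0.581 FPKM. CDH5, the endothelial cadherin, gave 4.92, 0.476 and 0.581 FPKM of this, and VWF, von Willebrand factor, 0.215, 0.265 and 0 FPKM, while PECAM1, TEK and CLDN5 were at 0. Several defining markers of each of these cell types were thus at 0, but CDH5 in DMSO stood above VIM and CDH2, and COL1A1, at 1.27 FPKM at 5 µM, stood above CDH2. Their part in the levels of VIM and CDH2 was not tested.

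Keratins are intermediate filament proteins that assemble only as pairs of a type I and a type II chain. KRT8 with KRT18 and KRT19 forms the network of simple epithelia such as the prostate lumen, and KRT5 marks basal cells. E-cadherin and EPCAM hold epithelial cells together. In an epithelial-mesenchymal transition (EMT), repressors such as ZEB1 lower E-cadherin while N-cadherin and vimentin take over.

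A change is the log2 ratio of a JG231 library to DMSO after 0.1 was added to each FPKM, a scale that understates the change of low genes. No replicate error exists, so each change of a member above 0 is set beside a spread. This is a robust standard deviation (from the median absolute deviation) of the change from 2.5 µM to 5 µM. It was taken over the 500 genes closest to the member in mean FPKM, and it includes any real difference between the doses. Most other list genes are given without their spread, which some of their changes do not exceed. Intervals given beside changes are 95% exact binomial intervals of the fragment ratio and cover counting error only. Without molecular identifiers, PCR copies of a molecule were counted as separate fragments.

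The low end of the libraries differed. Among genes with a single transcript, the most frequent fragment number above 1 was 5 in DMSO, 4 at 2.5 µM and 15 at 5 µM, as drawn in the plot of low fragment numbers. Only 59 of these genes had 2 fragments at 5 µM, against 285 in DMSO. Of 773 protein-coding genes with 20 to 40 fragments in DMSO, 18% were listed at 0 at 2.5 µM and 35.8% at 5 µM. A value of 0 at 5 µM is therefore given here as listed at 0. None of 12 genes that every cell uses, ACTB and GAPDH among them, was at 0 in any library.

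**Figure D1:**
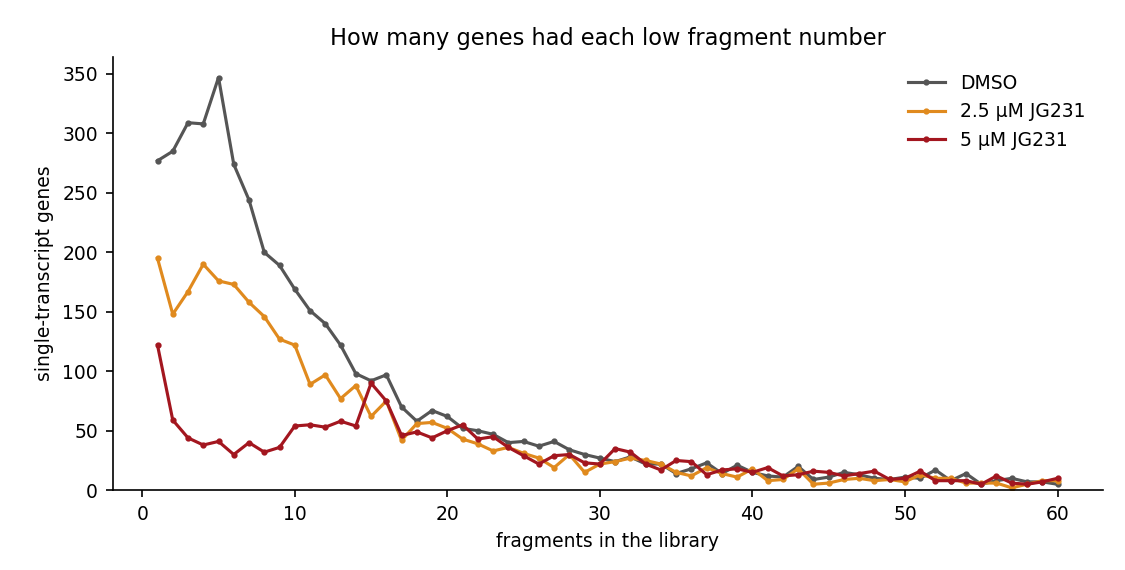
Number of single-transcript genes (vertical axis) with each number of fragments from 1 to 60 (horizontal axis) in each of the 3 libraries. The DMSO line is highest at 5 fragments, whereas the 5 µM line has its maximum above 1 fragment at 15.

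Of the 10 genes, 8 exceeded 1 FPKM in DMSO or a JG231 library, and ZEB1 and KRT5 did not. CDH2 passed this filter through DMSO alone, so it could only be called lower, and the other 7 passed it in all libraries. At 2.5 µM, 6 of the 8 were higher by more than 0.25 on the log2 scale, where 36.4% of the 15746 genes that passed the filter were higher, and CDH2 was lower, where 43.4% were lower. At 5 µM, 5 of the 8 were higher, against 36.5% of 15765 genes, and CDH2 again was lower, against 45.1%. Past a log2 change of 1, KRT7 and VIM were higher at 2.5 µM (12.9% of all genes), and KRT8, KRT18, KRT7 and VIM at 5 µM (14.7%). CDH2 was past a log2 change of -1 at both doses, as were 21.7% of all genes at 2.5 µM and 24.3% at 5 µM. The comparisons share the DMSO library. Keratins and vimentin were thus on the higher side, N-cadherin on the lower side, and changes of this size were common in the whole table.

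The scale between libraries matters for these counts. Of all genes past 0.25 in either direction, 45.6% were higher at 2.5 µM and 44.7% at 5 µM, but 30.8% and 27.9% when each library was rescaled to the DMSO sum with mitochondrial and small RNA genes left out. That rescaling put the median gene at -0.28 at 2.5 µM and -0.38 at 5 µM. It left KRT8 at 0.79, KRT18 at 0.78 and VIM at 0.93 at 5 µM, no longer past a log2 change of 1. Rescaling to the whole sum put the median gene at 0.05 and -0.14. As deposited, the median gene stood at 0.00 and -0.01, so the changes below are relative to the median gene.

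**Figure D2:**
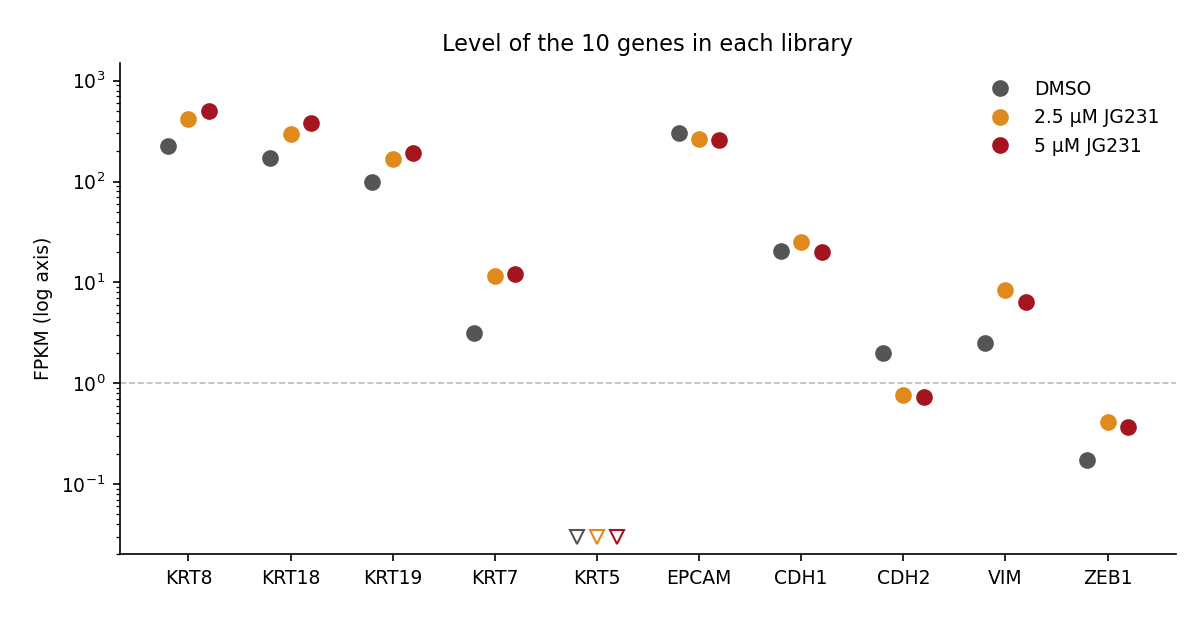
Level in FPKM (log axis) of each of the 10 genes in the DMSO, 2.5 µM JG231 and 5 µM JG231 libraries, 1 point per library. Open triangles at the foot mark KRT5, listed at 0, and the dashed line is 1 FPKM.

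KRT8 (ENSG00000170421, chr12:52897187-52949954, minus strand, GRCh38) is the type II keratin of simple epithelia. Its level was 224 FPKM in DMSO, 414 FPKM at 2.5 µM and 505 FPKM at 5 µM. The log2 change was 0.89 at 2.5 µM (0.86 to 0.91) and 1.17 at 5 µM (1.15 to 1.19), with a spread of 0.20. KRT8 was the most abundant of the 10 genes in the JG231 libraries, and stood above 99.6% of the genes detected in DMSO. KRT18 (ENSG00000111057, chr12:52948871-52952906, plus strand), its type I partner, is the neighbouring gene and the only type I keratin in that cluster. It was at 170 FPKM in DMSO, 299 FPKM at 2.5 µM and 380 FPKM at 5 µM, with changes of 0.82 and 1.16. The KRT8 to KRT18 ratio was 1.32 in DMSO, 1.39 at 2.5 µM and 1.33 at 5 µM, so the partners moved nearly in step. By distance between pairs of changes, each was the nearest of all list genes to the other, at 0.07 on the log2 scale. OVOL2, an epithelial transcription factor, was the next nearest to both.

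These neighbours share 525 bases of annotated exon on opposite strands, out of 6881 in KRT8 and 3069 in KRT18. The sources do not say if fragments were counted by strand, so those in the shared bases may have been assigned to either. Both genes also have many processed copies in the genome. The 50 KRT8 pseudogenes summed to 8.76 FPKM in DMSO, 12.6 FPKM at 2.5 µM and 11.6 FPKM at 5 µM, and the 67 KRT18 pseudogenes to 2.56, 1.09 and 1.71 FPKM. Adding them to their parents gave changes of 0.87 and 1.15 for KRT8, and 0.80 and 1.15 for KRT18. The copies were thus small beside the parent genes.

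KRT19 (ENSG00000171345, chr17:41523617-41528308, minus strand), a type I keratin of simple epithelia, lies in the type I cluster. It had 99.2 FPKM in DMSO, 168 FPKM at 2.5 µM and 192 FPKM at 5 µM. Its changes were 0.76 (0.70 to 0.82) and 0.95 (0.90 to 1.01), each over 3 times its spread of 0.20. Between the doses as deposited, the difference was 0.29 for KRT8 and 0.35 for KRT18, above their spread of 0.20, and 0.19 for KRT19, just under it. Rescaled to the DMSO sum, KRT8 (0.94 and 1.04) and KRT18 (0.87 and 1.03) differed between the doses by less than that spread. When mitochondrial and small RNA genes were also left out, KRT18 (0.53 and 0.78) stayed above it and KRT8 (0.59 and 0.79) was about at it. The order of the abundant keratins, KRT8 over KRT18 over KRT19, was the same in each library.

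KRT7 (ENSG00000135480, chr12:52232520-52252186, plus strand) is a type II keratin of ductal and glandular epithelia. Its level was 3.17 FPKM in DMSO, 11.5 FPKM at 2.5 µM and 12 FPKM at 5 µM, from about 204, 935 and 1158 fragments. The change was 1.82 at 2.5 µM (1.64 to 2.08) and 1.89 at 5 µM (1.71 to 2.15), with a spread of 0.31. KRT7 had the largest increase of the 10 genes at either dose, and its JG231 levels differed by less than the spread. TWIST1 and OVOL1 had the pair of changes nearest to that of KRT7 among the list genes. KRT7 shares 282 exonic bases with the antisense gene KRT7-AS, which had 0.551, 0.754 and 0.172 FPKM in DMSO, at 2.5 µM and at 5 µM.

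KRT5 (ENSG00000186081, chr12:52514575-52520530, minus strand), the basal type II keratin, was listed at 0 in all 3 libraries. At these depths 3 fragments would have been 0.0451 FPKM in DMSO, 0.0356 FPKM at 2.5 µM and 0.0302 FPKM at 5 µM. Its type I partner KRT14 was also at 0, as were 15 of the 20 basal and stratified keratins. In that list KRT10, a keratin of differentiating epidermis, had 7.42 FPKM in DMSO, 26.4 FPKM at 2.5 µM and 35.3 FPKM at 5 µM. KRT15, a basal type I keratin, had 4.72, 4.19 and 4.43 FPKM. KRT13 and KRT17 did not exceed 0.359 FPKM. The basal pair was therefore not detected, while KRT10 and KRT15 were.

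Of the 55 protein-coding keratin genes, 38 were listed at 0 in all libraries and 10 exceeded 1 FPKM in any. Their summed level was 515 FPKM in DMSO, 967 FPKM at 2.5 µM and 1172 FPKM at 5 µM. KRT8, KRT18 and KRT19 made up 95.6%, 91.1% and 91.8% of it. The 29 type I genes summed to 281, 497 and 612 FPKM, and the 26 type II genes to 234, 469 and 561 FPKM. The type I to type II ratio was 1.20 in DMSO, 1.06 at 2.5 µM and 1.09 at 5 µM. KRT80, a type II keratin of many epithelia, had 3.37 FPKM in DMSO, 27.6 FPKM at 2.5 µM and 28.7 FPKM at 5 µM, with changes of 3.00 and 3.05. KRT86, a hair keratin named here after its values were seen, had 2.44, 12.6 and 10.9 FPKM. Its span, chr12:52249300-52309163 on the plus strand, overlaps that of KRT7 on the same strand. No bases shared by the annotated exons of KRT7 and KRT86 were found. All 5 simple keratins over 1 FPKM were higher at both doses, against 36.4% and 36.5% of all genes, with medians of 0.89 and 1.17, beside 0.00 and -0.01 for all genes.

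Transcript length moved with these changes. Over 11200 protein-coding genes, the median change in the shortest decile (up to 1276 bp) was 0.43 at 2.5 µM and 0.61 at 5 µM, and in the longest decile (from 7460 bp) -0.26 and -0.52. The canonical transcripts of KRT8, KRT18, KRT19, KRT7 and EPCAM, between 1390 and 1784 bp, fall in the second decile, where the medians were 0.30 and 0.38. With the length trend removed the changes at 5 µM were 0.83 for KRT8, 0.72 for KRT18, 0.50 for KRT19 and 1.5 for KRT7. At 2.5 µM they were 0.64, 0.50, 0.44 and 1.54. The keratins thus remained higher by more than their spread on this scale. The part of length in any change was not tested.

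**Figure D3:**
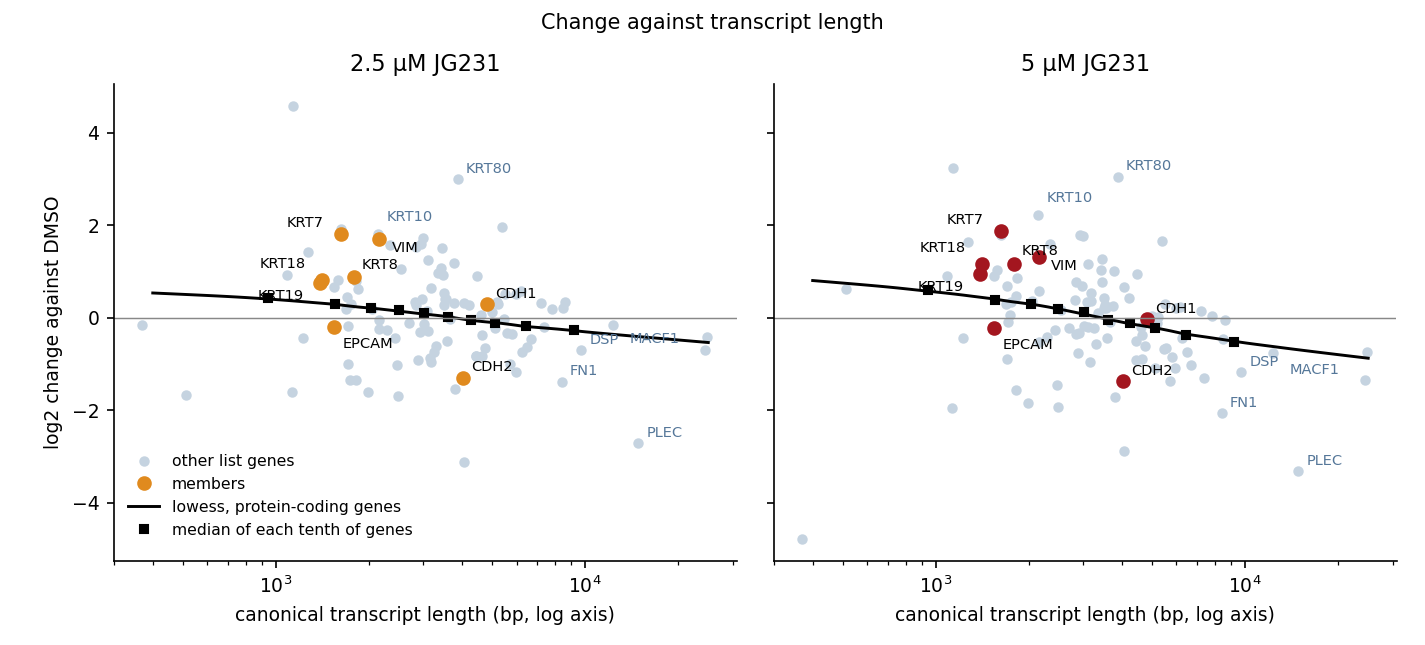
Log2 change against DMSO (vertical axis) by canonical transcript length in bp (log axis) at each dose for list genes whose mean FPKM reached 1, the named members in colour. Squares are medians of each length decile of protein-coding genes and the line is their lowess curve, which falls from short to long transcripts.

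EPCAM (ENSG00000119888, chr2:47345158-47387601, plus strand), the epithelial cell adhesion molecule, was the most abundant of the 10 genes in DMSO. Its level was 302 FPKM in DMSO, 262 FPKM at 2.5 µM and 261 FPKM at 5 µM. The changes of -0.20 (-0.24 to -0.17) and -0.21 (-0.25 to -0.18) were inside the threshold of 0.25 and near the spread of 0.20. EPCAM thus stayed level or slightly lower while keratins of the same transcript length were higher. With the length trend removed its changes were -0.50 and -0.62, past the threshold, and rescaled without mitochondrial and small RNA genes they were -0.50 and -0.59. TCHP, a keratin-binding protein, and YWHAB had the changes nearest to those of EPCAM. Its surface partner CLDN7, a claudin that binds EPCAM, had 237, 377 and 447 FPKM in DMSO, at 2.5 µM and at 5 µM, the opposite direction.

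Among the 12 genes of EPCAM partners and the epithelial surface, 5 were higher and 4 lower at 2.5 µM, where 36.4% of all genes were higher and 43.4% lower. At 5 µM 5 were higher and 5 lower, against 36.5% and 45.1%. The tetraspanin TSPAN8 had 26.4 FPKM in DMSO, 8.59 FPKM at 2.5 µM and 6.75 FPKM at 5 µM. MUC1, a membrane mucin, had 28, 10.9 and 9.36 FPKM. The surface glycoprotein CD24 had 266, 225 and 186 FPKM, and SPINT2, an inhibitor of surface proteases, 171, 194 and 210 FPKM. The SPINT2 changes of 0.19 and 0.30 were -0.08 and -0.07 with the length trend removed. The medians of this list were -0.01 and -0.12, and -0.26 and -0.33 on that scale.

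CDH1 (ENSG00000039068, chr16:68737292-68835537, plus strand) encodes E-cadherin, the adhesion receptor of epithelial adherens junctions. Its level was 20.5 FPKM in DMSO, 25.2 FPKM at 2.5 µM and 20.2 FPKM at 5 µM. The change was 0.29 (0.21 to 0.38) at 2.5 µM and -0.03 (-0.11 to 0.06) at 5 µM, with a spread of 0.25. CDH1 was slightly higher at the lower dose and at its DMSO level at the higher dose, and the sign at 5 µM was positive, at 0.16, with the length trend removed. Rescaled without mitochondrial and small RNA genes, the change at 2.5 µM was 0.00 and that at 5 µM -0.40. GRHL2, a transcription factor of epithelial cells, and PATJ, a polarity protein, had the changes nearest to those of CDH1. GRHL2 was at 12.2, 15.0 and 12.3 FPKM in DMSO, at 2.5 µM and at 5 µM.

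CDH2 (ENSG00000170558, chr18:27932879-28177946, minus strand) encodes N-cadherin, found in neural and mesenchymal cells. Its level was 2.01 FPKM in DMSO, 0.764 FPKM at 2.5 µM and 0.722 FPKM at 5 µM, or about 277, 134 and 149 fragments. The change was -1.29 (-1.70 to -1.09) and -1.36 (-1.77 to -1.18). The spread of genes at this low level was 1.15, so CDH2 was lower at both doses by little more than its spread. MUC1 and CHGB, a granin of neuroendocrine cells, had the nearest changes. The CDH1 to CDH2 ratio was 10.2 in DMSO, 32.9 at 2.5 µM and 27.9 at 5 µM, so E-cadherin was the more abundant cadherin throughout.

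Of the 14 adherens junction genes, CDH1 and CDH2 included, 7 were higher and 4 lower at 2.5 µM, against 36.4% and 43.4% of all genes. At 5 µM 4 were higher and 4 lower, against 36.5% and 45.1%. The catenin CTNNA1, which links cadherins to actin, had 69.3, 86.1 and 82.7 FPKM in DMSO, at 2.5 µM and at 5 µM. CTNNB1, beta-catenin, had 34.4, 33.9 and 32.5 FPKM, and VCL, vinculin, which binds actin at the junction, 14.2, 20.3 and 17.4 FPKM. P-cadherin, CDH3, had 14.1, 7.87 and 7.40 FPKM, and NECTIN1, an adhesion receptor of the same junction, 2.59, 1.09 and 1.17 FPKM. Named here after their values were seen, CTNND1, the p120 catenin, had 2.73, 1.96 and 1.30 FPKM, JUP, plakoglobin, 12.3, 14.8 and 16.6 FPKM, and the nectin NECTIN4 2.80, 5.47 and 4.84 FPKM. CTNNB1 thus stayed near its DMSO level, CTNNA1, VCL, JUP and NECTIN4 were higher at both doses, and CTNND1, P-cadherin and NECTIN1 were lower beside CDH2. At 2.5 µM the JUP change of 0.275, with a spread of 0.279, was 0.239 with the length trend removed, inside the threshold. The CTNND1 change of -0.46 at 2.5 µM was also under its spread of 0.76. At 5 µM the CTNNA1 change of 0.254 was just past the threshold, and the VCL change of 0.29 just past its spread of 0.28. With the length trend removed these were 0.31 and 0.55. They are not given here on the rescaled scale that put the median gene at -0.38.

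Keratin filaments end at desmosomes, where DSP, desmoplakin, anchors them. DSP had 48.9 FPKM in DMSO, 30.2 FPKM at 2.5 µM and 21.6 FPKM at 5 µM. The desmosomal cadherin DSG2 had 23.2, 11.6 and 8.93 FPKM, and PERP, a small desmosomal membrane protein, 103, 125 and 139 FPKM. The plakophilin PKP3 had 20.3, 25.7 and 26.4 FPKM, and its changes of 0.34 and 0.38 were 0.23 and 0.26 with the length trend removed. Of 16 desmosome genes, 9 passed the filter, of which 3 were higher and 4 lower at 2.5 µM, against 36.4% and 43.4% of all genes, and 3 higher and 5 lower at 5 µM, against 36.5% and 45.1%. The anchor was lower where the filament proteins were higher, though DSP has a 9697 bp transcript, and with the length trend removed its changes were -0.40 and -0.65.

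Of 12 linkers and binding proteins of keratins, 8 were lower at 2.5 µM and 7 at 5 µM, where 43.4% and 45.1% of all genes were lower. In this list 1 and 2 genes were higher, against 36.4% and 36.5%. Among the lower genes, EPPK1 at both doses and DST at 5 µM passed the filter through DMSO alone, so they could only be called lower. The DST changes of -0.42 and -0.74 turned to 0.11 and 0.13 with the length trend removed. The medians were -0.42 and -0.43, and -0.22 and -0.26 with the length trend removed, beside -0.06 and -0.08 for all genes on that scale. PLEC, plectin, which joins filaments to hemidesmosomes, had 31.9, 4.79 and 3.12 FPKM in DMSO, at 2.5 µM and at 5 µM. Its changes of -2.71 and -3.32 were -2.31 and -2.63 without the length trend. The giant crosslinker MACF1 had 6.37, 3.93 and 2.46 FPKM, and its changes of -0.69 and -1.34 shrank to -0.16 and -0.47. The keratin-binding protein YWHAE had 107, 124 and 138 FPKM, and its changes of 0.20 and 0.36 were -0.01 and 0.07 without the trend. YWHAZ had 187, 205 and 192 FPKM, with changes of 0.13 and 0.04, or 0.23 and 0.24 without the trend. Plectin and desmoplakin were thus lower beyond the trend of long transcripts at both doses.

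Of 22 tight junction and polarity genes, 17 passed the filter at 2.5 µM, with 10 higher and 3 lower, against 36.4% and 43.4% of all genes. At 5 µM 18 passed, with 9 higher and 5 lower, against 36.5% and 45.1%, and the medians were 0.34 and 0.23. CLDN9 passed through the 5 µM library alone, so it could only be called higher. CLDN3, a claudin of tight junction strands, had 388 FPKM in DMSO, 1048 FPKM at 2.5 µM and 1213 FPKM at 5 µM. CLDN4 had 191, 262 and 306 FPKM, and CLDN1 2.19, 6.42 and 5.41 FPKM. F11R, an immunoglobulin-like junction receptor, had 40.1, 22.7 and 21.7 FPKM, and the polarity protein CRB3 15.0, 28.7 and 28.2 FPKM. With the length trend removed the changes of CLDN4 went from 0.46 and 0.68 to 0.19 and 0.31, so that at 2.5 µM it fell inside the threshold, and those of CRB3 from 0.93 and 0.90 to 0.55 and 0.37. CLDN3, CLDN1 and CRB3 were thus higher on either scale, and F11R was lower.

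**Figure D4:**
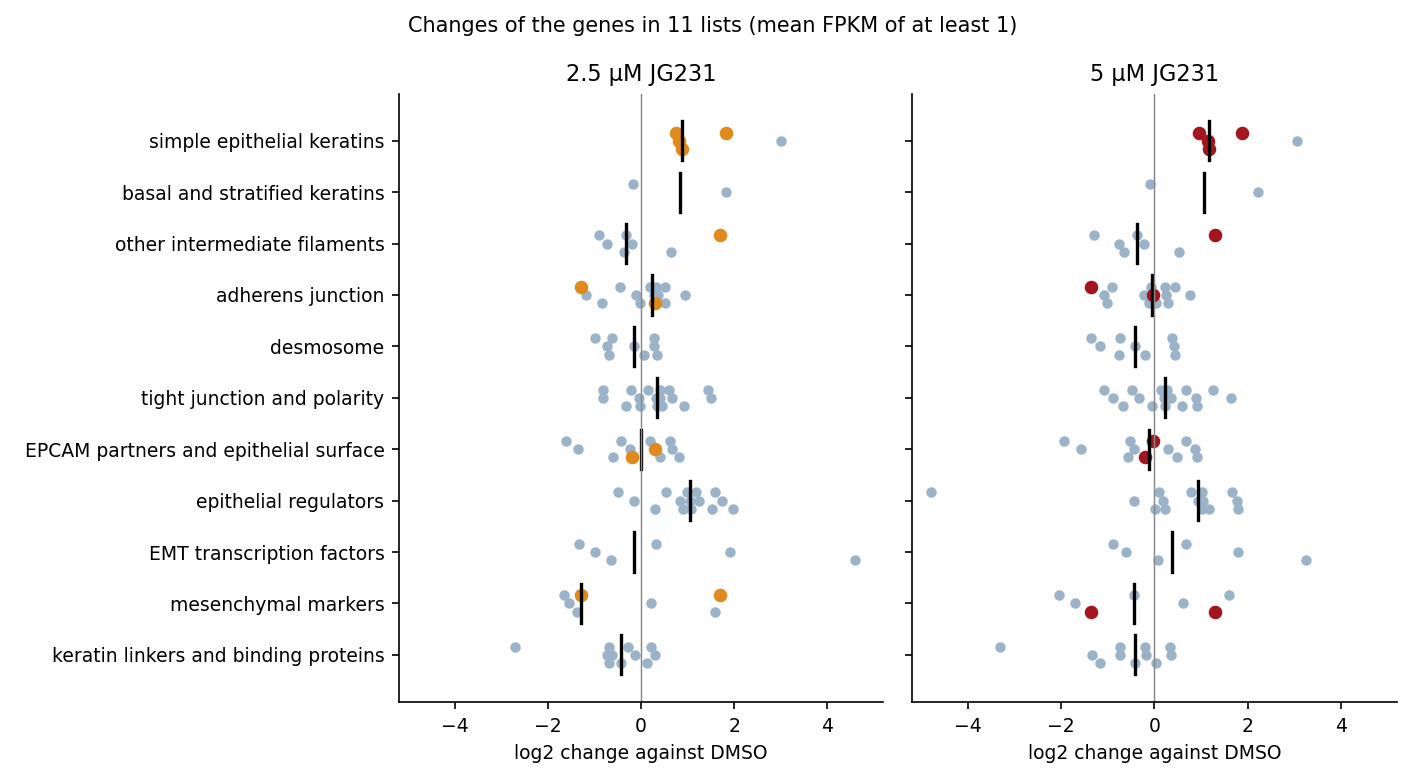
Log2 change against DMSO (horizontal axis) at 2.5 µM and 5 µM of the genes in 11 lists whose mean FPKM reached 1, with the named members in colour and the list median as a bar. Simple keratins lie wholly above 0, and mesenchymal markers spread to both sides.

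VIM (ENSG00000026025, chr10:17228241-17237593, plus strand) encodes vimentin, the type III intermediate filament of mesenchymal cells. Its level was 2.52 FPKM in DMSO, 8.43 FPKM at 2.5 µM and 6.38 FPKM at 5 µM, from about 210, 889 and 795 fragments. The change was 1.70 (1.52 to 1.96) at 2.5 µM and 1.31 (1.12 to 1.57) at 5 µM, with a spread of 0.39. VIM was higher at both doses, and its 5 µM level was below its 2.5 µM level by 0.40, about the spread. CLDN1 and the protease gene MMP9 had the nearest changes. KRT18 was still 67.3 times as abundant as VIM in DMSO, 35.4 times at 2.5 µM and 59.5 times at 5 µM.

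VIM shares 656 of its 5176 exonic bases with the antisense gene VIM-AS1, which had 8.30 FPKM in DMSO, 14.2 FPKM at 2.5 µM and 17.7 FPKM at 5 µM. The antisense gene was thus listed above VIM in every library and was highest at 5 µM, whereas VIM was highest at 2.5 µM. Without a stated use of strand, their fragments cannot be told apart in the shared bases.

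Of the other mesenchymal markers, FN1, fibronectin, had 10.7 FPKM in DMSO, 4.04 FPKM at 2.5 µM and 2.49 FPKM at 5 µM. The changes of -1.38 and -2.05 were -1.13 and -1.59 with the length trend removed. TAGLN, an actin-binding protein of smooth muscle, had 3.11, 1.002 and 0.881 FPKM, and MMP9 0.559, 1.87 and 1.89 FPKM. S100A4, a calcium-binding protein, had 2.18, 0.623 and 3.41 FPKM, on about 33, 12 and 78 fragments. Of 16 mesenchymal genes, 7 passed the filter, of which 2 were higher and 4 lower at 2.5 µM, against 36.4% and 43.4% of all genes, and 3 higher and 4 lower at 5 µM, against 36.5% and 45.1%. MMP9 passed through JG231 alone and CDH2 through DMSO alone, as did S100A4 at 2.5 µM and TAGLN at 5 µM, so the filter sets the direction in which these could be called. With fragments divided by the most frequent number given above, the MMP9 interval at 5 µM ran from -0.16 to 4.03. VIM and FN1, both over 1 FPKM in all libraries, differed in direction.

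Among the other intermediate filaments, INA, the neuronal internexin, had 34.1, 20.4 and 29.1 FPKM in DMSO, at 2.5 µM and at 5 µM. The nuclear lamin LMNB1 had 59.9, 31.8 and 35.1 FPKM, LMNB2 37.2, 28.8 and 28.9 FPKM, and LMNA 14.6, 23.0 and 21.1 FPKM. INA was more abundant than VIM in each library. DES and GFAP, the filaments of muscle and glia, were at 0.

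**Figure D5:**
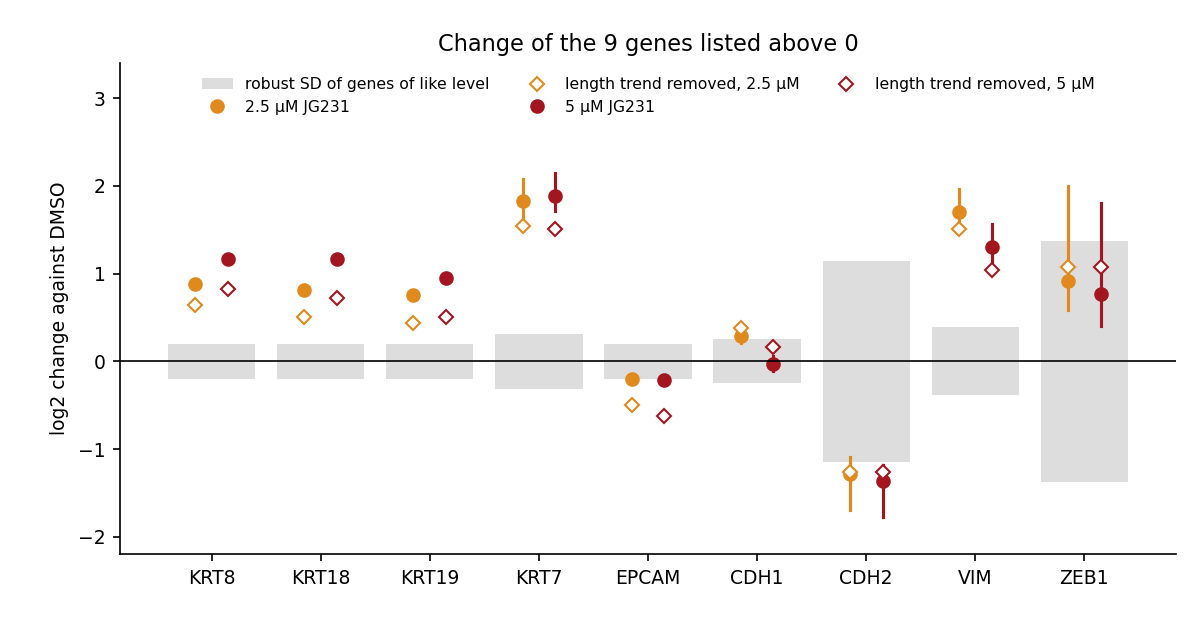
Log2 change against DMSO of the 9 genes above 0 at 2.5 µM and 5 µM, with 95% counting intervals as lines and values with the length trend removed as diamonds. Grey bands are the spread of genes of like level, which the simple keratins and VIM exceed at both doses and ZEB1 does not.

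ZEB1 (ENSG00000148516, chr10:31318495-31529814, plus strand) encodes a zinc finger repressor of E-cadherin. Its level was 0.172 FPKM in DMSO, 0.414 FPKM at 2.5 µM and 0.365 FPKM at 5 µM, or about 24, 73 and 76 fragments. The changes of 0.92 (0.58 to 1.99) and 0.77 (0.40 to 1.81) were under the spread of 1.37, and no library reached 1 FPKM. If fragments are divided by that most frequent number, the interval runs from -0.30 to 2.97 at 2.5 µM and from -1.12 to 3.12 at 5 µM. A difference in ZEB1 was thus not detectable at this depth under that count. The antisense gene ZEB1-AS1, which shares 396 exonic bases, had 1.70, 1.37 and 1.56 FPKM, above ZEB1 in each library.

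Among the 12 EMT transcription factors, TWIST2, TCF4 and FOXC2 were listed at 0 throughout. TWIST1, a basic helix-loop-helix factor, had 3.18 FPKM in DMSO, 12.3 FPKM at 2.5 µM and 11.3 FPKM at 5 µM. GSC, a homeobox factor, had about 1, 81 and 36 fragments, for 0.0492, 3.49 and 1.32 FPKM. SNAI1, the Snail repressor, had 3.69, 1.80 and 1.95 FPKM, and TCF3, a repressor of the same promoters, 27.8, 17.8 and 18.2 FPKM. TWIST1 was thus higher and TCF3 lower at both doses. With fragments divided as for ZEB1 the GSC interval at 5 µM starts at -1.41. The SNAI1 intervals on that count, -2.03 to 0.04 and -2.77 to 0.46, include 0 at both doses. In this list 6 genes passed the filter, of which 3 were higher and 3 lower at 2.5 µM, against 36.4% and 43.4% of all genes, and 3 higher and 2 lower at 5 µM, against 36.5% and 45.1%. GSC and PRRX1 passed through JG231 alone, so they could only be called higher, and SNAI3 at 2.5 µM through DMSO alone, so it could only be called lower.

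Of 17 regulators of the epithelial state, 15 passed the filter. At 2.5 µM 13 of the 15 were higher and 1 lower, against 36.4% and 43.4% of all genes, and at 5 µM 9 were higher and 2 lower, against 36.5% and 45.1%. FOXA2 passed through JG231 alone and was 1 of the 13, and MIR200CHG at 5 µM passed through DMSO alone and was 1 of the 2, so the filter set the direction of these calls. The medians were 1.05 and 0.94, or 0.96 and 0.66 with the length trend removed. ELF3, an epithelial ETS factor, had 83.7 FPKM in DMSO, 200 FPKM at 2.5 µM and 189 FPKM at 5 µM. The related factor EHF had 6.15, 24.3 and 19.6 FPKM, and the splicing regulator ESRP1 41.1, 93.7 and 83.0 FPKM. OVOL1 had 3.41, 11.5 and 11.9 FPKM, KLF4 4.03, 12.4 and 14.3 FPKM, and KLF5 28.4, 56.2 and 30.6 FPKM. FOXA1, a pioneer factor of prostate epithelium, had 67.5, 97.7 and 78.9 FPKM. At 5 µM the changes of KLF5 (0.11), FOXA1 (0.22) and GRHL2 (0.02) were inside the threshold, and GRHL1, named here after its values were seen, was lower at both doses (-0.49 and -0.44). ELF3, EHF, ESRP1, OVOL1 and KLF4 were thus higher at both doses, and the list was mixed at 5 µM.

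The miR-200 family is known to target ZEB1 mRNA, and its members on chromosome 12 lie within MIR200CHG (chr12:6963226-6964447, plus strand). MIR200CHG, named here after its values were seen, had 2.66 FPKM in DMSO, 2.38 FPKM at 2.5 µM and was listed at 0 at 5 µM, from about 16, 18 and 0 fragments. The mature miRNAs, which these libraries do not measure, are shown to place that gene beside ZEB1. All 5 names matched RefSeq entries of GRCh38.p14. The seed, bases 2 to 8, is in capitals, and miR-200b, miR-200c and miR-429 share 1 seed while miR-200a and miR-141 share another.
hsa-miR-200c-3p: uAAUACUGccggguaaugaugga
hsa-miR-200b-3p: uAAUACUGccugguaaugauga
hsa-miR-429: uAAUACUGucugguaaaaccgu
hsa-miR-141-3p: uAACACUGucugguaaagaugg
hsa-miR-200a-3p: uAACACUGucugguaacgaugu

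ZEB1 and Snail factors bind E-box letters, and GRHL factors bind a core of their own. CACCTG and its reverse complement CAGGTG, and ACCGGT, which is its own reverse complement, were searched on both strands of RefSeq promoter windows of 300 bases, 250 before and 50 after a start. No pair of these words can share bases in a match. Windows were matched for 5 members, KRT8, KRT5, CDH2, VIM and ZEB1, and not for KRT18, KRT19, KRT7, EPCAM and CDH1. Of 34943 windows, 20.6% held the E-box letters and 1.82% the GRHL core. Windows at canonical starts are shown for VIM and CDH2, which changed in opposite directions, and for ZEB1 and KRT5, which held searched letters. Capitals mark the searched letters.
ZEB1, chr10:31318966-31319265, plus strand, GRCh38.p14: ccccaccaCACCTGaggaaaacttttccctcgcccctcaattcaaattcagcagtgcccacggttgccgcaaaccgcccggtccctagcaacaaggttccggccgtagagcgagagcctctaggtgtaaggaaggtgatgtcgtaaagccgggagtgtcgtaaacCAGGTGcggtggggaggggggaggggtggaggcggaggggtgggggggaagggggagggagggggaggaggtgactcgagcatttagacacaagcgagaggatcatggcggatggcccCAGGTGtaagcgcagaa
VIM, chr10:17227991-17228290, plus strand, GRCh38.p14: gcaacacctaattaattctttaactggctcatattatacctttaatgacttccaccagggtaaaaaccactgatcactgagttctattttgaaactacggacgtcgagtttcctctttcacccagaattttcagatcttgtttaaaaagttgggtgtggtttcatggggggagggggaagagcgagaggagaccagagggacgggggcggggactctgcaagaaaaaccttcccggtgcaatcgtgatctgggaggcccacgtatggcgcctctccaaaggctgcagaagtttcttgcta
CDH2, chr18:28177081-28177380, minus strand, GRCh38.p14: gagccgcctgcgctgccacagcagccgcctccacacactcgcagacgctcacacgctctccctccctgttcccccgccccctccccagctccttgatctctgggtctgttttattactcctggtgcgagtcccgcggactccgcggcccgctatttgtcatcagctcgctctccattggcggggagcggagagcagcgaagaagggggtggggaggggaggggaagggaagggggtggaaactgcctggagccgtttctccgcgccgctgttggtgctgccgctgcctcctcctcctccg
KRT5, chr12:52520345-52520644, minus strand, GRCh38.p14: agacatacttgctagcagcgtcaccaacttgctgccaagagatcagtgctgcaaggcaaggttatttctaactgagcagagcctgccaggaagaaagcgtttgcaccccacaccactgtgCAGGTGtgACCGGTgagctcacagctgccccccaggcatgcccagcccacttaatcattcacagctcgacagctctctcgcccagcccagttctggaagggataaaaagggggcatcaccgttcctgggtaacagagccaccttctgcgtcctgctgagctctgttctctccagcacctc

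The ZEB1 window held the E-box letters 3 times, and 2 of the 7 ZEB1 windows held them at least 1 time. The KRT5 window held 1 E-box match and 1 GRHL core match, and the VIM and CDH2 windows held neither. The KRT8 window, whose start lies 21393 bases from the canonical start, also held neither. A link between these letters and the changes was not tested.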

How the data were processed

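RNA-seq of H660 cells given DMSO, 2.5 µM JG231 or 5 µM JG231 for 24 h was analysed, with 1 library per condition. The authors deposited gene-level FPKM for 58735 Ensembl genes. The study's methods name HISAT and StringTie in a Top Hat-Cufflinks pipeline, while the submitters' processing notes name HISAT2, featureCounts and GRCh38; versions and the use of strand are not given in the sources used here. Accounts of the RNA input also differ between the methods and the sample records. FPKM corrects for length and depth only, so composition shifts between libraries remain.

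Members and lists were chosen with earlier results of these data known. Identifiers of 58207 of the 58735 genes were found in GENCODE release 44. Fragments were computed from the FPKM steps of single-transcript genes, of which 90.5%, 88.2% and 86.7% under 50 fragments were within 0.1 of a whole number in DMSO, at 2.5 µM and at 5 µM, and with exon lengths of that release, so they are approximate. Changes used a pseudocount of 0.1, calls an FPKM over 1 in either library and a log2 change past 0.25, and medians were over genes whose mean FPKM reached 1. The length trend was a lowess curve (fraction 0.3).

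All 10 members were named. In each list up to 4 genes were named by mean FPKM, and up to 3, with a mean FPKM of 1 or more and changes of like sign, by whichever dose changed less. The 2 list genes nearest to a member were those at the smallest Euclidean distance between pairs of changes. Alternatives were pseudocounts of 1 and 0.01, rescaling to the DMSO sum, the same with mitochondrial and small RNA genes left out, subtracting the median change, a mean FPKM of at least 5, no filter, a threshold of 1, removal of the length trend and summing with processed pseudogenes. Dividing fragments by their most frequent number was chosen after seeing the data. Scripts were tested on simulated data. The software was matplotlib 3.10.9, statsmodels 0.14.6, scipy 1.17.1, pandas 2.3.3 and numpy 2.4.6 under Python 3.11.15. Some genes of the lists are not reported here.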

Additional observations from a re-analysis of the deposited data

Results flagged for a closer look

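The list genes S100A4, ACP3 and INSM1 moved to opposite sides of DMSO at the 2 doses by more than 0.25 on the log2 scale. S100A4 had changes of -1.66 at 2.5 µM and 0.62 at 5 µM, on few fragments. ACP3, prostatic acid phosphatase, had changes of -0.95 and 0.38, and INSM1, a neuroendocrine factor, 0.29 and -0.35. With the length trend removed S100A4 was at -2.17 and -0.13, on the same side of DMSO. On that scale INSM1 was at 0.18 and -0.46, inside the threshold at 2.5 µM. ACP3, at -1.02 and 0.33, was still on opposite sides. The smaller change of each gene was under its spread, which was 0.73 for S100A4, 0.89 for ACP3 and 0.30 for INSM1. The doses share the DMSO library, and with 1 library each the differences were not tested.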

How the results depend on the processing

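Of 126 recomputed changes of the 9 genes above 0, 83 moved by less than 0.5 of the width of their counting interval and 43 moved by more. Some of the 83 could not move. Summing with pseudogenes altered only KRT8 and KRT18, and the median subtracted at 2.5 µM was 0. Among these 9 genes, no change past the threshold turned its sign in the alternatives run. Some other list genes did turn with the length trend removed. DST went from -0.42 and -0.74 to 0.11 and 0.13, and SPINT2 at 5 µM from 0.30 to -0.07. The number of members lower at 2.5 µM went from 1 to 2 after rescaling that left out mitochondrial and small RNA genes and to 2 with the length trend removed, where EPCAM passed the threshold, and to 0 with a mean FPKM of at least 5, which left out CDH2. At 5 µM it went from 1 to 2 when rescaled to the DMSO sum, to 3 without mitochondrial and small RNA genes, to 2 with the length trend removed and to 0 with a mean FPKM of at least 5. With a threshold of 1, the members higher at 2.5 µM went from 6 to 2. The other counts stayed within 1.5 times. Across alternatives KRT8 ranged from 0.79 to 1.18 at 5 µM, KRT7 from 1.5 to 1.92, VIM from 0.93 to 1.34, CDH2 from -1.69 to -0.81 and ZEB1 from 0.22 to 1.07. With fragments divided by their most frequent number, chosen after seeing the data, 8 in place of 9 counting intervals left out 0 at 2.5 µM, and 7 in place of 8 at 5 µM. Depth limits ZEB1, KRT7, VIM and CDH2, which had 24, 204, 210 and 277 fragments in DMSO. No paired analysis was possible because each condition has 1 library.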
